A study of Mus musculus with 4 samples.

Results

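Genes of the Wnt pathway were compared between mature adipocytes of 2 fat depots of the mouse. Members were taken by gene symbol, as the Wnt ligands, Frizzled receptors, LRP and Lgr co-receptors, secreted and membrane antagonists, R-spondins, TCF/LEF factors and feedback genes of the table, which gave 53 of 18781 genes. The dermal group (dWAT) held 2 libraries of purified mature adipocytes of the skin, and the inguinal group (sWAT) held 2 libraries of purified mature inguinal adipocytes. All mice were C57BL/6, a common inbred strain, at postnatal day 30 (P30), and the labels name no treatment, genotype or sex. Cells were freed with collagenase IV and dispase II and collected as the floating fraction. The labels do not say how many animals were used, whether animals were pooled, or that replicates came from separate animals, so a p-value here sets depots against the spread between libraries of 1 depot, and that spread may be technical.

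Wnt proteins are secreted lipid-modified ligands that bind a Frizzled receptor together with LRP5 or LRP6. In the canonical branch this keeps a complex around Axin from marking beta-catenin for destruction, and beta-catenin then acts with TCF/LEF factors on target genes, several of which encode inhibitors of the pathway itself. In fat, canonical Wnt signalling is known for holding back the differentiation of preadipocytes, and in skin it is known for its part in hair follicle formation and growth.

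The libraries held 10127125 to 12730013 reads assigned to genes. Levels are given as normalized CPM, counts scaled to library size and by a further factor of the authors, in which 1 read was worth 0.0844 to 0.0969 CPM. Adipocyte markers were abundant in every library, with 16 markers summing to 48601 to 52294 CPM, and 3 of the 16, Cebpa, Plin1 and Lep, passed as higher in dermal libraries. Markers of other cells were present as well. Of 15 endothelial markers 14 passed as higher in inguinal libraries, with sums of 534 and 588 CPM in the dermal and 1788 and 2743 CPM in the inguinal libraries. All 10 hair follicle markers had reads, all 4 tested ones passed as higher in dermal libraries, and the list summed to 71.1 and 16.3 CPM in dermal against 1.27 and 2.33 CPM in the inguinal libraries. The 12 fibroblast and progenitor markers summed to 5951 and 13599 CPM in the dermal and 3867 and 6655 CPM in the inguinal libraries, more in replicate 2 of each depot. Of 14 tested macrophage markers 12 passed as higher in dermal libraries, and the 15 measured ones summed to 1884 and 1742 CPM there against 677 and 627 CPM in the other depot. In such bulk libraries fewer cells of a type and less RNA per cell cannot be told apart.

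Of the 53 members, 28 had at least 1 CPM in at least 2 libraries and were tested. Dermal libraries carried more Fzd4 and Fzd2, which encode Frizzled receptors, more Apcdd1, a membrane inhibitor of Wnt signalling, and more Tcf7l2, a TCF/LEF transcription factor. Inguinal libraries carried more Sfrp2 and Dkk2, which encode secreted antagonists, and more Ctnnb1, which encodes beta-catenin. These 7 members were 25% of the 28 tested, 14.3% with dermal and 10.7% with inguinal libraries higher, where 16.4% of all 12797 tested genes passed, 7.56% and 8.80% in these directions (limma, Benjamini-Hochberg adjusted p below 0.05 over all genes, two-sided). On GRCm38 the called genes other than Apcdd1 lie at chr7:89404355-89413134 (Fzd4), chr11:102604396-102608058 (Fzd2), chr19:55741820-55933654 (Tcf7l2), chr3:83766321-83774316 (Sfrp2), chr3:132085292-132180304 (Dkk2) and chr9:120929216-120960507 (Ctnnb1). Dkk2 entered the test through its inguinal values alone, with both dermal values below 1 CPM, so that its non-overlap was fixed by the filter. Without genes tested in this way, 4 and 2 of 27 members (14.8% and 7.41%) passed as higher in dermal and inguinal libraries, beside 7.21% and 8.48% of genes. The other 21 tested members did not pass, and the median log2 fold change of the 28, positive where dermal libraries were higher and computed on log2(CPM + 0.5), was 0.27, against 0.02 over all tested genes. Values did not overlap between depots for 17 of the 28, 13 with dermal and 4 with inguinal libraries higher. Over all tested genes 61.8% did not overlap, 31.6% with dermal and 30.1% with inguinal libraries higher. Without the genes tested through 1 depot alone, 13 and 3 of 27 members did not overlap in these directions, beside 30.9% and 29.6% of genes.

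**Figure D1:**
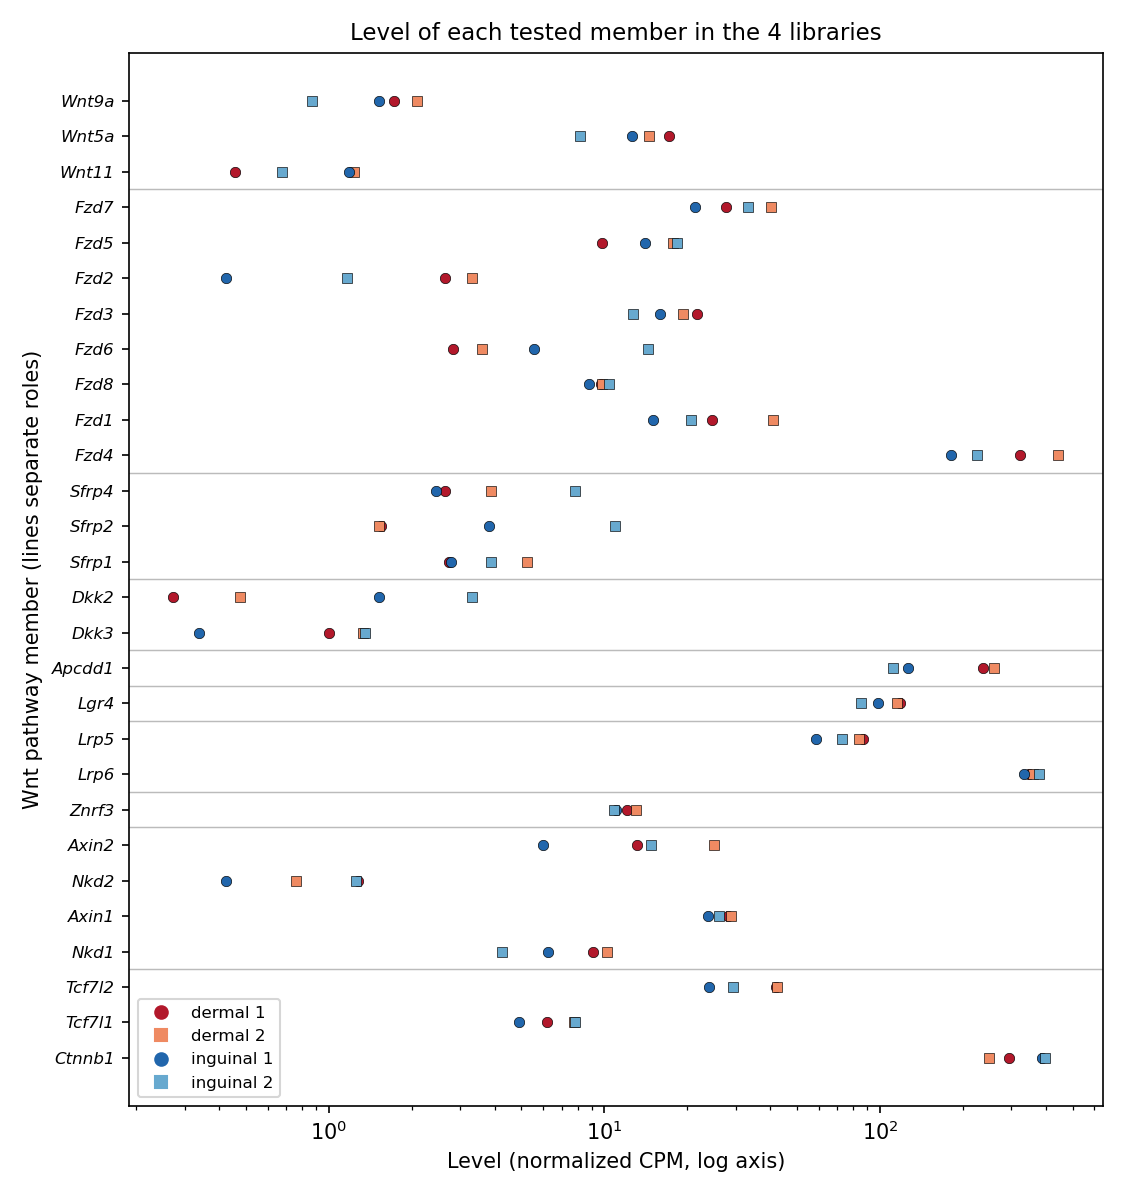
Normalized CPM (log axis) of the 28 tested members in each of the 4 libraries, 1 point per library, ordered by role. Fzd4, Apcdd1, Lgr4, both LRP co-receptors and Ctnnb1 lie at the right, with Fzd4 between 181 and 444 CPM, and Wnt9a, Wnt11, Nkd2 and the Dickkopf genes lie at the left, with Dkk2 between 0.273 and 3.30 CPM.

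**Figure D2:**
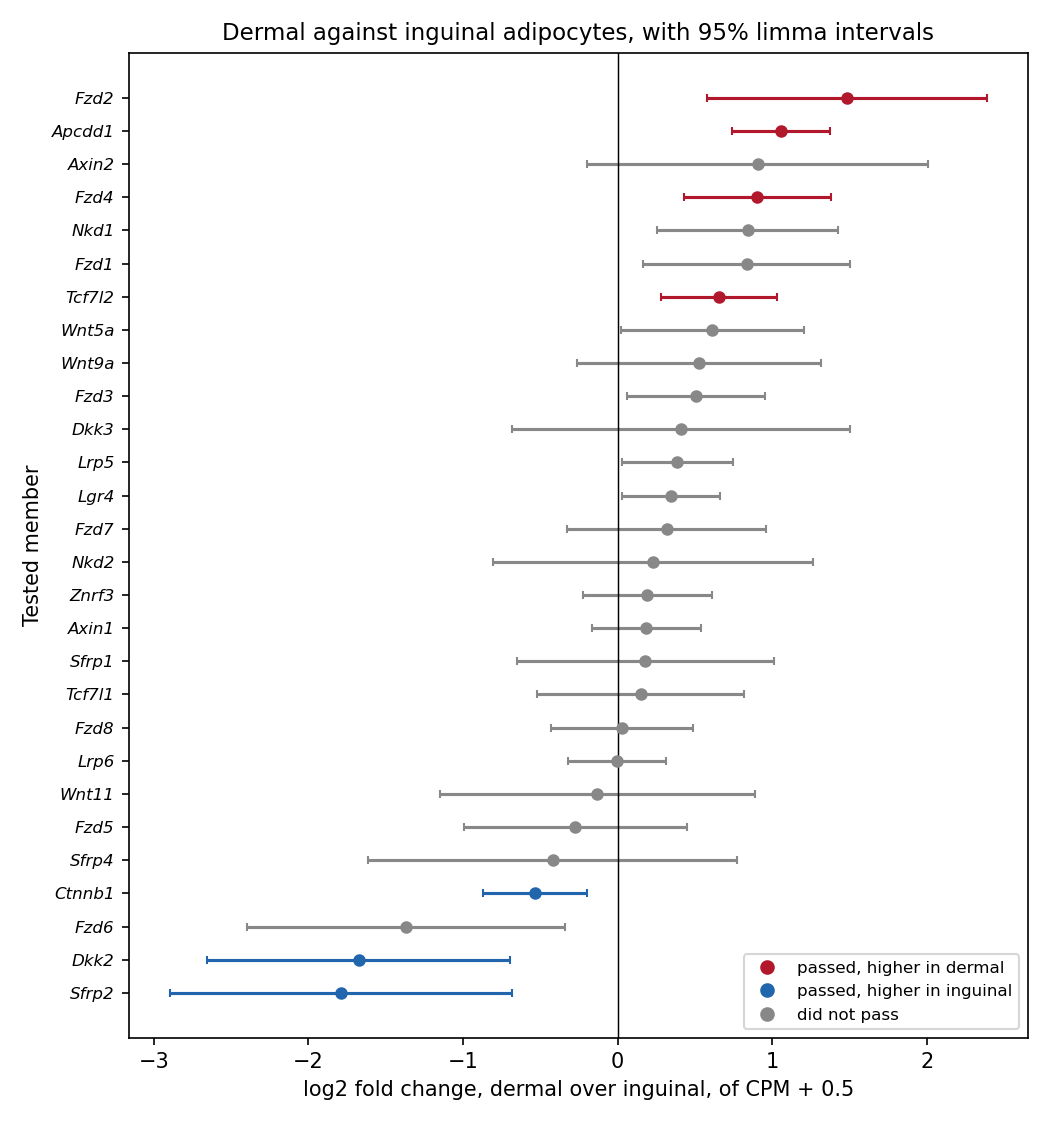
Log2 fold change of each tested member, positive where dermal libraries were higher and computed on log2(CPM + 0.5), with the 95% interval of the limma fit. The 4 members that passed as higher in dermal libraries lie between 0.66 and 1.48, and the 3 that passed as higher in inguinal libraries between -1.79 and -0.53. Dkk2 is among the latter and was tested through its inguinal values alone.

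Wnt ligands were measured at low levels, and none of the 3 tested ones passed (limma). Summed over the 13 ligand genes of the table, levels reached 21.3 and 20.4 CPM in the dermal and 17.1 and 12.5 CPM in the inguinal libraries. Wnt5a, the ligand best known for signalling without beta-catenin, made up most of this. It measured 17.1 and 14.5 CPM in the dermal and 12.6 and 8.14 CPM in the inguinal libraries, so that both dermal values lay above both inguinal ones. Its log2 fold change was 0.61 (SE 0.25) with an adjusted p = 0.141, which missed the threshold. Per kilobase of exon, Wnt5a accounted for 64.1% and 51.9% of the ligand level in dermal and 57.8% and 45.6% in inguinal libraries. Wnt9a followed with 1.73 and 2.09 CPM in the dermal and 1.52 and 0.873 CPM in the inguinal libraries (log2 fold change 0.53 with SE 0.33, adjusted p = 0.315). Wnt11 lay at 0.455 and 1.23 CPM in the dermal and 1.18 and 0.679 CPM in the inguinal libraries, with overlapping values.

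The remaining 10 ligand genes fell below the filter, and reads for 7 of them numbered at most 10 over all libraries (Wnt2b, Wnt3, Wnt8b, Wnt9b, Wnt10a, Wnt10b and Wnt16). Wnt10b, the ligand studied most as a brake on adipocyte differentiation, had 1 and 0 reads in dermal and 3 and 3 reads in inguinal libraries, a level of at most 0.291 CPM. Wnt5b, a ligand close in sequence to Wnt5a, had 10 and 17 reads in dermal and 0 and 2 reads in inguinal libraries. Its dermal level was 13.9 times the inguinal level, with a 95% counting interval of 3.49 to 121. Wnt4 went the other way, with 3 and 1 reads in dermal and 11 and 9 reads in inguinal libraries, an inguinal level 4.86 times the dermal one (95% counting interval 1.63 to 19.5). Wnt2 had 4 and 5 reads in dermal and 4 and 10 reads in inguinal libraries. These intervals cover counting error only.

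Frizzled receptors bind Wnt ligands at the cell surface, and 8 of the 10 receptor genes were tested. Fzd4 and Fzd2 passed as higher in dermal libraries and the other 6 did not pass. Fzd4, which encodes a receptor for Wnt ligands and for the protein Norrin, measured 322 and 444 CPM in the dermal and 181 and 226 CPM in the inguinal libraries. The depots did not overlap, and replicate 2 was the higher one in each. Its log2 fold change was 0.90 (SE 0.20, adjusted p = 0.0275). That call was lost without dermal replicate 2 (log2 fold change 0.67, adjusted p = 0.137) and without the intensity trend (0.0632). In the same libraries the endothelial marker list went in the opposite direction, at 534 and 588 CPM in dermal against 1788 and 2743 CPM in the inguinal libraries. The part of endothelial cells in the Fzd4 values was not tested.

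Per kilobase of exon, Fzd4 was the highest Frizzled transcript in each of the 4 libraries, with 72.5% and 71.7% of the Frizzled level in dermal and 65.0% and 61.2% in inguinal libraries. Fzd7 and Fzd1 came next and lay close together. Fzd7 held 9.23% and 9.61% in dermal and 11.4% and 13.4% in inguinal libraries, and Fzd1 held 8.82% and 10.6% in dermal and 8.67% and 8.93% in inguinal libraries. Summed over the 10 genes, the Frizzled level per kilobase was 66.1 and 92.2 in dermal and 41.3 and 54.8 in inguinal libraries (CPM per kilobase).

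**Figure D3:**
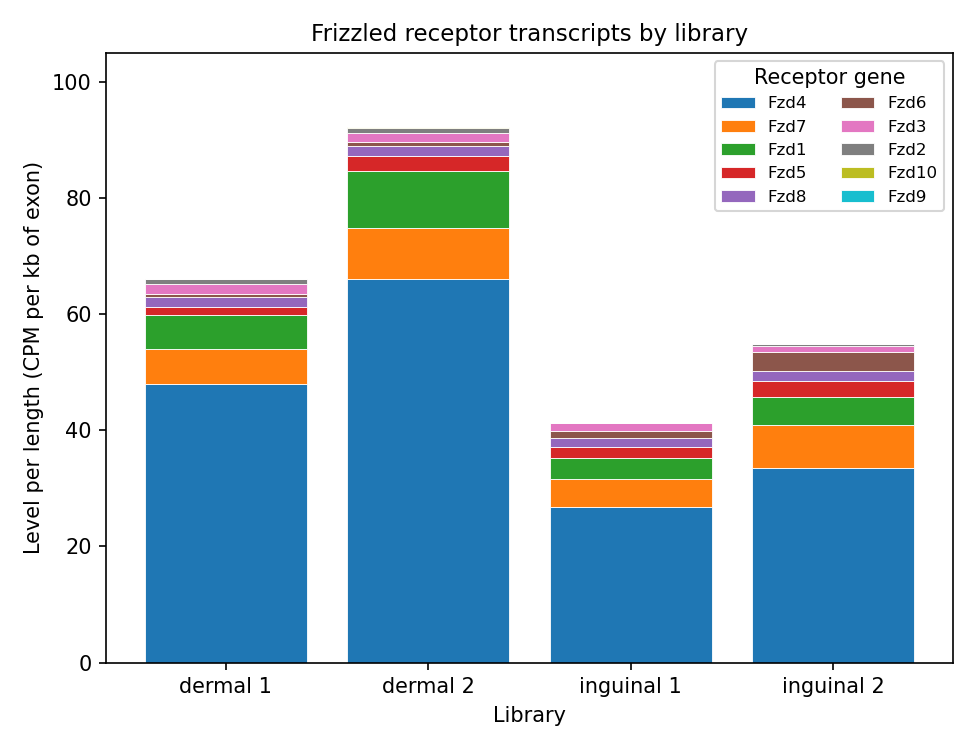
Level per length (CPM per kilobase of exon) of the 10 Frizzled genes, stacked by gene, for each library. Fzd4 forms the largest block in every library, from 61.2% to 72.5% of the bar, and the bars of the dermal libraries (66.1 and 92.2) stand above those of the inguinal libraries (41.3 and 54.8).

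Fzd2, the other receptor gene that passed, was much lower. It measured 2.64 and 3.32 CPM in the dermal and 0.422 and 1.16 CPM in the inguinal libraries, from 64 dermal and 17 inguinal reads. Both dermal values lay above both inguinal ones, with a log2 fold change of 1.48 (SE 0.38, adjusted p = 0.0439). This call was lost under 6 of 13 alternatives, including DESeq2 on the recovered reads (adjusted p = 0.0714) and omission of either dermal replicate (0.0952 and 0.172) or of inguinal replicate 1 (0.0769).

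Fzd6, known for its part in planar cell polarity and hair patterning, was the receptor gene with the most negative estimate. It measured 2.82 and 3.61 CPM in the dermal and 5.57 and 14.4 CPM in the inguinal libraries, highest in inguinal replicate 2. The log2 fold change was -1.37 (SE 0.43) and the adjusted p = 0.0785 missed the threshold. Fzd1 measured 24.5 and 41.1 CPM in the dermal and 15.0 and 20.6 CPM in the inguinal libraries, without overlap (log2 fold change 0.83 with SE 0.28, adjusted p = 0.0935). With DESeq2 on the recovered reads both Fzd6 and Fzd1 passed, each in the same direction as here. Fzd7 measured 27.7 and 40.1 CPM in the dermal and 21.4 and 33.3 CPM in the inguinal libraries. These ranges overlapped (log2 fold change 0.32 with SE 0.27, adjusted p = 0.460). Fzd3, Fzd5 and Fzd8 lay between 8.78 and 21.8 CPM with log2 fold changes of 0.51, -0.27 and 0.03. Fzd9 and Fzd10 had 1 and 5 reads over all libraries.

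The LRP co-receptors and the R-spondin receptor Lgr4 were well expressed and did not pass. Lrp6 measured 347 and 361 CPM in the dermal and 334 and 377 CPM in the inguinal libraries. Its log2 fold change of -0.00 had a 95% interval of -0.32 to 0.31. Lrp5 measured 87.1 and 84.1 CPM in the dermal and 58.7 and 72.8 CPM in the inguinal libraries (log2 fold change 0.39 with SE 0.15, adjusted p = 0.129). Lgr4, which strengthens Wnt signalling when R-spondins bind it, measured 119 and 115 CPM in the dermal and 98.5 and 85.6 CPM in the inguinal libraries (log2 fold change 0.35 with SE 0.13, adjusted p = 0.124). For Lrp5 and Lgr4 the dermal values lay above the inguinal ones. The R-spondins themselves were near the detection limit. Rspo1 had 6 and 1 reads in dermal and 1 and 1 reads in inguinal libraries, Rspo3 had 1 and 4 reads in dermal and 1 and 3 in inguinal libraries, and Rspo2 had 2 reads in dermal replicate 2 alone. Of the membrane ubiquitin ligases that remove Frizzled receptors and that R-spondins hold in check, Znrf3 measured 12.1 and 13.0 CPM in the dermal and 10.98 and 10.9 CPM in the inguinal libraries (log2 fold change 0.19 with SE 0.17, adjusted p = 0.493). Its partner Rnf43 had 3 reads in each dermal library and 0 in the inguinal libraries. Lgr6, another receptor for R-spondins, had 2 and 1 reads in dermal and 3 and 5 reads in inguinal libraries.

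Apcdd1, which encodes a membrane glycoprotein that binds Wnt and LRP5 and inhibits signalling, had the smallest adjusted p among the members. It lies on chromosome 18 (GRCm38, 62922231 to 62961179). Levels were 237 and 259 CPM in the dermal and 126 and 111 CPM in the inguinal libraries, so that each dermal library held more than each inguinal one. The log2 fold change was 1.06 (SE 0.13, adjusted p = 0.00503), with a 95% interval of 0.74 to 1.38. The gene passed under all 14 alternatives, with log2 fold changes of 0.97 to 1.21 and adjusted p of at most 0.0274. Markers of the dermal papilla, a hair follicle compartment in which Apcdd1 is known to be expressed, summed to 167 and 159 CPM in the dermal and 120 and 111 CPM in the inguinal libraries, mostly from Trps1. Of the 6 tested markers of this list 1 passed in each direction and 4 did not pass. Hhip, a Hedgehog-binding protein gene, stood at 5.19 and 11.1 CPM in the dermal and 0.253 and 1.066 CPM in the inguinal libraries (adjusted p = 0.0127, limma), the direction of Apcdd1. Alpl, an alkaline phosphatase gene, stood at 0.637 and 1.33 CPM in the dermal and 3.63 and 3.97 CPM in the inguinal libraries (adjusted p = 0.0244). Corin, Sox2 and Crabp1 lay between 0 and 0.910 CPM, and the part of such cells in the Apcdd1 result was not tested.

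The secreted Frizzled-related proteins bind Wnt ligands outside the cell. Sfrp2 measured 1.55 and 1.52 CPM in the dermal and 3.80 and 10.95 CPM in the inguinal libraries. Both inguinal values were higher, and they differed 2.88 times between themselves. The log2 fold change was -1.79 (SE 0.46, adjusted p = 0.0458). It was -1.08 when inguinal replicate 2 was left out and -2.49 when inguinal replicate 1 was left out. The call was lost under 7 of 13 alternatives, among them omission of inguinal replicate 2 (adjusted p = 0.0710) and of either dermal replicate (0.0876 and 0.0862). Fibroblasts and progenitors are known to express Sfrp2, and the 12 genes of their list divided. Their sum was highest in dermal replicate 2 (13599 CPM), carried by Col3a1 (8179 CPM), Col1a2 (2997 CPM) and Col1a1 (1524 CPM). Dcn, Lum, Pdgfra and Thy1 were also highest in dermal replicate 2. Of the 12 genes, 1 passed as higher in dermal and 0 as higher in inguinal libraries. The gene that passed was Thy1, at 26.9 and 44.7 CPM in the dermal and 11.5 and 11.9 CPM in the inguinal libraries (adjusted p = 0.012, limma). Pi16, Dpp4, Cd34, Ly6a and Cd55 were highest in inguinal replicate 2, as Sfrp2 was. Pi16 measured 5.64 and 4.17 CPM in the dermal and 6.59 and 19.4 CPM in the inguinal libraries (adjusted p = 0.149, limma), and Dpp4 measured 2.82 and 3.98 CPM in the dermal and 3.72 and 12.02 CPM in the inguinal libraries (adjusted p = 0.263, limma). Their part in the Sfrp2 result was not tested. Exons of Sfrp2 overlap the antisense gene Gm26771, and the sources used here do not give the strand setting used in counting, so reads of both strands may be mixed. In all, 11 members had such an overlap, among them Wnt5a, Wnt11, Fzd5, Fzd6, Axin2, Tcf7l1, Lef1 and Ctnnb1. Sfrp4 measured 2.64 and 3.89 CPM in the dermal and 2.45 and 7.85 CPM in the inguinal libraries, with overlap (log2 fold change -0.42 with SE 0.50, adjusted p = 0.608). Sfrp1 measured 2.73 and 5.22 CPM in the dermal and 2.79 and 3.88 CPM in the inguinal libraries. Sfrp5, described as an adipocyte-secreted antagonist, stayed below the filter with 6 and 4 reads in dermal and 5 and 8 reads in inguinal libraries, and Frzb had 5 reads in all.

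Dickkopf proteins block the LRP co-receptors, apart from Dkk3, which is not known to act this way. Dkk2 measured 0.273 and 0.474 CPM in the dermal and 1.52 and 3.30 CPM in the inguinal libraries, from 8 dermal and 52 inguinal reads. Both inguinal values were higher, with a log2 fold change of -1.67. It passed the expression filter through its inguinal values alone and so had to differ. These values are a description, and its call carries no weight of its own. Dkk2 is still counted among the 7 called members, and the shares of members without it are given with that count. Of 10 tested pericyte and smooth muscle markers, 7 passed as higher in inguinal libraries and 2, Mcam and Cspg4, as higher in dermal libraries. The list summed to 746 and 730 CPM in the dermal and 753 and 857 CPM in the inguinal libraries. Mcam (395 and 387 CPM) and Cspg4 (191 and 180 CPM) made up most of the dermal sums. They stood at 291 and 253 CPM and at 113 and 82.2 CPM in the inguinal libraries. The endothelial, pericyte and smooth muscle, and red blood cell lists all stood highest in inguinal replicate 2, as did Sfrp2, Dkk2 and Fzd6. The part of these cells in the results was not tested. Dkk3 measured 1.00 and 1.33 CPM in the dermal and 0.338 and 1.36 CPM in the inguinal libraries (log2 fold change 0.41 with SE 0.45, adjusted p = 0.580). Dkk1 had 1 read in each depot.

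Wif1, which binds Wnt ligands outside the cell, and Lgr5, an R-spondin receptor and a marker of hair follicle stem cells, were detected almost wholly in dermal libraries. Wif1 had 9 and 19 reads in dermal and 1 and 0 reads in inguinal libraries, a ratio of 28.8 with a 95% counting interval of 4.77 to 1179. Lgr5 had 8 and 11 reads in dermal and 1 and 0 reads in inguinal libraries, a ratio of 19.6 with an interval of 3.11 to 813. In limma without an expression filter, Wif1 (adjusted p = 0.0315), Lgr5 (0.0227) and Wnt5b (0.0350) passed as higher in dermal and Wnt4 (0.0492) as higher in inguinal libraries. These were 3 and 1 of the 25 members below the filter, where 0.685% and 0.501% of all 5984 genes below the filter passed in these directions, genes with few or no reads included. Wif1, Lgr5 and Wnt5b each had more reads in dermal replicate 2 than in dermal replicate 1. These counts are small, and the difference between the dermal replicates was not tested against counting error. In dermal replicates 1 and 2, hair follicle markers summed to 71.1 and 16.3 CPM and dermal papilla markers to 167 and 159 CPM. Fibroblast and progenitor markers summed to 5951 and 13599 CPM there. The part of any of these cells in the results was not tested. In the keratinocyte list 5 of 7 tested genes passed as higher in dermal libraries. The list summed to 88.2 and 54.0 CPM in the dermal and 25.8 and 18.5 CPM in the inguinal libraries. Most of each sum came from Trp63, at 46.2 and 34.7 CPM in the dermal and 21.2 and 14.15 CPM in the inguinal libraries. Notum, an enzyme that removes the lipid from Wnt proteins, had 2 reads in dermal replicate 1 and 0 elsewhere.

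**Figure D4:**
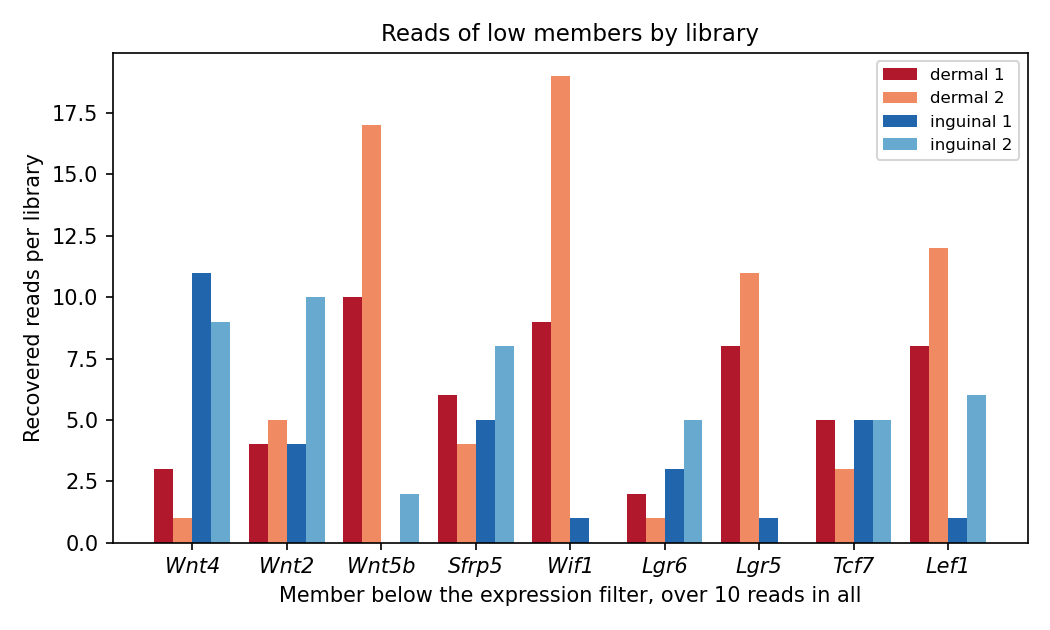
Recovered reads per library of the 9 members that stayed below the expression filter and had over 10 reads in all. Wnt5b, Wif1 and Lgr5 have 8 to 19 reads in each dermal library and at most 2 in each inguinal library, and Wnt4 has 11 and 9 reads in the inguinal libraries.

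**Figure D5:**
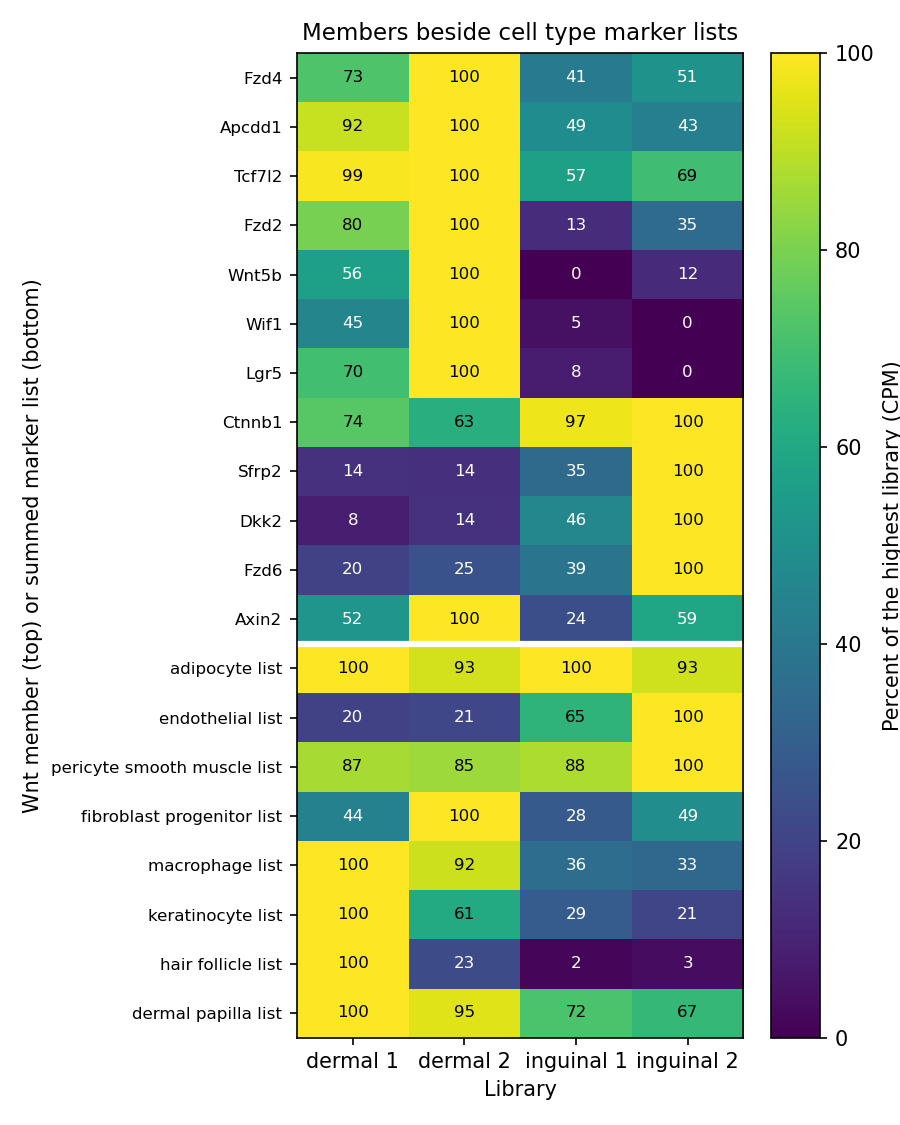
Level of 12 members and summed level of 8 cell type marker lists in each library, as a percent of the highest library of that row. The endothelial list, the pericyte and smooth muscle list, Ctnnb1, Sfrp2, Dkk2 and Fzd6 are at 100 in inguinal replicate 2. The hair follicle, keratinocyte, dermal papilla and macrophage lists are at 100 in dermal replicate 1. The fibroblast and progenitor list is at 100 in dermal replicate 2, as are Wif1, Lgr5 and Wnt5b, which stand at 45.4, 69.8 and 56.4 in dermal replicate 1. The rows of Wif1, Lgr5 and Wnt5b rest on few reads and carry counting error.

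Inside the cell, Axin scaffolds the complex that destroys beta-catenin, and Axin2 and Nkd1 are feedback inhibitors that canonical signalling induces in many tissues. None of the 4 genes of this role passed (limma). Axin2 measured 13.1 and 25.05 CPM in the dermal and 6.00 and 14.7 CPM in the inguinal libraries, with an overlap between dermal replicate 1 and inguinal replicate 2. Its log2 fold change was 0.91 (SE 0.46) with an adjusted p = 0.225. Nkd1, which binds Dishevelled, measured 9.10 and 10.2 CPM in the dermal and 6.25 and 4.27 CPM in the inguinal libraries, without overlap. Its log2 fold change of 0.84 (SE 0.24) had the smallest adjusted p among the members that missed the threshold, 0.0649. Axin1 measured 28.0 and 28.7 CPM in the dermal and 23.7 and 26.1 CPM in the inguinal libraries (log2 fold change 0.19 with SE 0.15, adjusted p = 0.424). Nkd2 stayed between 0.422 and 1.27 CPM, with overlap.

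Among the TCF/LEF factors, which bind DNA and recruit beta-catenin, Tcf7l2 was the highest transcript per kilobase, with 79.9% and 76.4% of the level of the 4 genes in dermal and 75.4% and 69.6% in inguinal libraries. It measured 42.0 and 42.4 CPM in the dermal and 24.1 and 29.4 CPM in the inguinal libraries. The depots did not overlap. The log2 fold change was 0.66 (SE 0.16, adjusted p = 0.0360). The call was lost under 5 of 14 alternatives, among them omission of dermal replicate 1 (adjusted p = 0.172), dermal replicate 2 (0.179) and inguinal replicate 1 (0.0590), while the log2 fold change stayed between 0.51 and 0.80. Tcf7l1 measured 6.19 and 7.78 CPM in the dermal and 4.90 and 7.85 CPM in the inguinal libraries (log2 fold change 0.15 with SE 0.28). Lef1, a factor prominent in the hair matrix and dermal papilla, had 8 and 12 reads in dermal and 1 and 6 reads in inguinal libraries. The ratio was 2.94 with a 95% counting interval of 1.19 to 8.23, which covers counting error only. In limma without an expression filter Lef1 did not pass (adjusted p = 0.212). Tcf7 had 8 reads in dermal and 10 in inguinal libraries.

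Ctnnb1, whose product also joins cadherins at cell contacts, went in the other direction. It measured 294 and 248 CPM in the dermal and 386 and 396 CPM in the inguinal libraries, without overlap. The log2 fold change was -0.53 (SE 0.14, adjusted p = 0.0479), the smallest of the 7 that passed. It was lost under 8 of 14 alternatives, including omission of either dermal replicate (adjusted p = 0.128 and 0.365) or of inguinal replicate 2 (0.0591), edgeR on the recovered reads (0.0566) and quantile normalization (log2 fold change -0.36, adjusted p = 0.127). Exons of Ctnnb1 overlap those of Ulk4 on the opposite strand. The endothelial cadherin gene Cdh5 was also higher in inguinal libraries, at 492 and 817 CPM against 137 and 169 CPM in dermal libraries, and its part in the Ctnnb1 result was not tested.

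Promoter sequence is shown for a called receptor gene, the called transcription factor gene and the secreted antagonist genes Sfrp2 and Dkk2, because their levels differed between depots and their start sites lie in the sequence table. For Dkk2 the filter fixed the non-overlap, and its difference is a description. The table of RefSeq sequences (GRCm38.p6) held 45 windows for 35 of the 53 members, among them 5 of the 7 called genes. Each sequence is the 250 bases before a gene start, on the plus strand, 5′ to 3′. Fzd4 spans chr7:89404116-89404365, Tcf7l2 has windows at chr19:55741560-55741809 and at an internal start at chr19:55895071-55895320, Sfrp2 spans chr3:83766071-83766320 and Dkk2 spans chr3:132085042-132085291. Capitals mark a TCF/LEF core motif, searched on both strands. The letters searched were CTTTGAA, together with the form CTTTGAT, the form ending differently CTTTGTA and lastly the form CTTTGTT.
Fzd4: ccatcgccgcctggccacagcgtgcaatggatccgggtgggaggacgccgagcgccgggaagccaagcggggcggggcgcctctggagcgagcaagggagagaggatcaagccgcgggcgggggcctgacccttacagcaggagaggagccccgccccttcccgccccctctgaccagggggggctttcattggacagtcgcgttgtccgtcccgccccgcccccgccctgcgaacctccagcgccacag
Tcf7l2, first start: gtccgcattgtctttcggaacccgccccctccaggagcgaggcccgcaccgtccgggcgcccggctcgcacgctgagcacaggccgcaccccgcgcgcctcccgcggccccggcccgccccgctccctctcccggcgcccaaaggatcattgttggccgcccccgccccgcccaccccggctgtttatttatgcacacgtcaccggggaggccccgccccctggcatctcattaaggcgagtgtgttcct
Tcf7l2, internal start: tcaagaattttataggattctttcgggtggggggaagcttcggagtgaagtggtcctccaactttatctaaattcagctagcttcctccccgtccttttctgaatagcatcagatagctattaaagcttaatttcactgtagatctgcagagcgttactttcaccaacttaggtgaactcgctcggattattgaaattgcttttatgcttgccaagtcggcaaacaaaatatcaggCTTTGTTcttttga
Sfrp2: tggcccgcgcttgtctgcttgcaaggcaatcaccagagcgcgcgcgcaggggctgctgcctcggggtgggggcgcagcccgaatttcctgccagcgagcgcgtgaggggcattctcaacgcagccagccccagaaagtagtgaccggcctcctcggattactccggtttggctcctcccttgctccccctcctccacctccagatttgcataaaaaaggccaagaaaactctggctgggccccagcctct
Dkk2: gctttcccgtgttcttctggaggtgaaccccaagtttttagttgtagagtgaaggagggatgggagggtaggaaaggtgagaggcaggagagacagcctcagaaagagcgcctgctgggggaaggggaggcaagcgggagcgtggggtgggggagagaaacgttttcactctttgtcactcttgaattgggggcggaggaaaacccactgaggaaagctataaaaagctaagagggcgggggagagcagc

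Of the windows of called members, those of Ctnnb1 included, only the internal start of Tcf7l2 held a match, 14 to 8 bases before the start. Over the members, 6 of 45 windows (13.3%) held at least 1 match, where 14.8% of all 32851 windows of this length did. The windows with a match belonged to Dkk1, Fzd7, Lef1, Tcf7l2, Wnt5b and Wnt11. By base composition, 72.8% of the Fzd4 window was G or C, against 55.6% in Dkk2, 63.6% in Sfrp2, and 72.8% and 40.8% at the first and the internal start of Tcf7l2. The gene-level values do not tell which Tcf7l2 start was used. A match of these letters is a description and not a binding site.

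Other genes of the pathway were taken from 8 lists by role, with 101 measured genes of which 84 were tested. Of these 5 passed as higher in dermal and 6 as higher in inguinal libraries, 5.95% and 7.14%, beside 7.56% and 8.80% of all tested genes. The median log2 fold change of the 84 was 0.02. Neither gene for the secretion of Wnt proteins passed, with Wls, the carrier of Wnt proteins to the cell surface, at 94.3 and 98.8 CPM in the dermal and 84.2 and 79.2 CPM in the inguinal libraries (adjusted p = 0.230). None of the 14 tested genes of the beta-catenin destruction complex passed (limma), with the smallest p for the kinase gene Csnk1a1, at 216 and 220 CPM in the dermal and 275 and 282 CPM in the inguinal libraries (adjusted p = 0.0987). None of the 5 tested genes for further antagonists passed either (limma). The lowest p was that of Trabd2b, which encodes a membrane protease that cleaves Wnt proteins, at 49.0 and 34.6 CPM in the dermal and 30.6 and 15.7 CPM in the inguinal libraries (adjusted p = 0.115).

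Among nuclear cofactors of beta-catenin, Bcl9l, which encodes a coactivator that binds beta-catenin, measured 48.6 and 49.6 CPM in the dermal and 13.8 and 20.0 CPM in the inguinal libraries (log2 fold change 1.54 with SE 0.20, adjusted p = 0.00575). Tle3, a Groucho corepressor that also acts with Pparg in adipocytes, measured 60.9 and 67.8 CPM in the dermal and 41.0 and 37.5 CPM in the inguinal libraries (log2 fold change 0.70 with SE 0.14, adjusted p = 0.0203) and did not pass without dermal replicate 1 (0.0821) or dermal replicate 2 (0.153). Both genes were higher in each dermal library. Sox17, which encodes an endothelial transcription factor able to restrain beta-catenin, measured 7.65 and 9.01 CPM in the dermal and 21.4 and 39.0 CPM in the inguinal libraries (log2 fold change -1.74 with SE 0.29, adjusted p = 0.0133), and followed the direction of 14 of 15 endothelial markers. The remaining 16 of the 19 cofactor genes did not pass.

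Of 10 tested genes for other receptors and their partners, Gpc3, a glypican that binds Wnt and Hedgehog proteins, was higher in dermal libraries, at 41.4 and 89.6 CPM against 8.11 and 23.3 CPM (log2 fold change 2.10 with SE 0.53, adjusted p = 0.0434). The call was lost with DESeq2 (adjusted p = 0.102). In limma it was lost without a filter (0.0697), with a filter at 5 CPM (0.0508) and without the intensity trend (0.0811). It was also lost without dermal replicate 2, where the log2 fold change was 1.55. Mcc encodes a cytoplasmic protein that binds beta-catenin and is no receptor, although it was placed in this list. It was higher in inguinal libraries, at 23.0 and 51.2 CPM against 10.3 and 12.4 CPM (log2 fold change -1.56 with SE 0.36, adjusted p = 0.0328, limma). Mcc did not pass without a filter (0.0547), without the intensity trend (0.0639) or with rescaling (0.052). It also did not pass without dermal replicate 1, where the log2 fold change was -1.43. Ccdc88c, a binding partner of Dishevelled, was the 1 of 7 tested genes of the Dishevelled list that passed, at 7.10 and 10.2 CPM in the dermal and 23.3 and 46.8 CPM in the inguinal libraries (log2 fold change -1.89 with SE 0.35, adjusted p = 0.0169). All 3 genes showed no overlap between depots.

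In the planar polarity list, 15 of 17 tested genes did not pass. Celsr2, an atypical cadherin of that pathway, measured 29.2 and 38.0 CPM in the dermal and 14.9 and 20.8 CPM in the inguinal libraries (log2 fold change 0.90 with SE 0.22, adjusted p = 0.0398, limma). Its call was lost without a filter (0.061) and without the intensity trend (0.069). It was also lost without dermal replicate 1 or dermal replicate 2, where the log2 fold change was 1.09 and 0.71. Daam2, a formin, measured 4.64 and 6.26 CPM in the dermal and 14.3 and 18.6 CPM in the inguinal libraries (log2 fold change -1.51 with SE 0.24, adjusted p = 0.0101). The 2 genes went in opposite directions, each without overlap.

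Genes that beta-catenin is known to induce, other than the members, also divided between depots, with 1 higher in dermal, 2 higher in inguinal and 7 of 10 not passing. Twist1, a mesenchymal transcription factor gene, measured 29.7 and 38.0 CPM in the dermal and 15.1 and 16.2 CPM in the inguinal libraries (log2 fold change 1.08 with SE 0.18, adjusted p = 0.0124) and did not pass without dermal replicate 2 (0.0744). Tbx3, a T-box factor gene, measured 2.73 and 2.66 CPM in the dermal and 11.1 and 14.5 CPM in the inguinal libraries (log2 fold change -2.05 with SE 0.23, adjusted p = 0.00362). Myc measured 49.2 and 69.7 CPM in the dermal and 150 and 163 CPM in the inguinal libraries (log2 fold change -1.41 with SE 0.19, adjusted p = 0.00584). Immediate early genes, a class of rapid response genes to which Myc also belongs, passed as higher in inguinal libraries for 7 of 10 and summed to 1808 and 2673 CPM in the dermal and 5037 and 5826 CPM in the inguinal libraries. Their part in the Myc result was not tested.

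Members, like tested genes at large, often differed between the libraries of 1 depot in a way shared by both depots. Of the 28 tested members, 16 were higher in the library numbered 2 of both depots, where 35.3% of all tested genes did so. Another 3 members, Wnt5a, Fzd3 and Lgr4, were higher in the library numbered 1 of both depots, where 30.3% of all tested genes did so. Axin2, a feedback gene of canonical signalling, was 1.91 times higher in dermal replicate 2 than in dermal replicate 1 and 2.46 times higher in inguinal replicate 2 than in inguinal replicate 1. Set against the inguinal library of the same number, it was 2.19 and 1.70 times higher in the dermal library. Fzd1 was 1.68 and 1.37 times higher in replicate 2, and 1.63 and 2.0 times higher in the dermal library of the same number. The fibroblast and progenitor markers also summed to more in replicate 2 of both depots, and their part in these values was not tested. The labels do not say what the replicate numbers share.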

How the data were processed

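RNA was prepared as stranded total RNA libraries, per the labels' protocols. Per the submitters' processing notes, the genome was mm10 and the tools included edgeR, featureCounts of Subread 1.4.6, TopHat2 2.0.12 and Picard 1.127, along with bcl2fastq and FastQC. Their roles and settings, strand included, are not stated there. The deposited signal values are CPM that the authors scaled by library size and a further factor, since the 4 columns sum to 960745 to 1074951. The factor implied for each library, from 0.9303 to 1.041, matched the TMM normalization factor that edgeR computed from the recovered reads. In each column 100% of values were whole multiples of the value of 1 read within 0.001, so reads were recovered.

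The test was limma 3.58.1 (R 4.3.3) with an intensity trend, run on log2(CPM + 0.5) for genes with at least 1 CPM in at least 2 libraries. Changes of genes at low levels come out too small on that scale. P-values were adjusted over all 12797 genes tested, and 2094 passed. edgeR 4.0.16 and DESeq2 1.42.0 on the recovered reads were alternatives and called 2060 and 1985 genes. The fit was tested on simulated data. Exon lengths and positions came from GENCODE M21 (GRCm38, the build of mm10), which may differ from the annotation used for counting. Values of members with at most a few reads carry counting error.

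The symbol rule for members and the other lists were set with earlier results of these data known. Named in full were the members that passed and the 2 highest of each role, and of other pathway genes those that passed or, with none, the smallest p of the list. Further members were named after their values were seen. Groups came from the sample titles. Library pairs of 1 depot differed and none was counted as a duplicate.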

Additional observations from a re-analysis of the deposited data

How the results depend on the processing

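Apcdd1 passed under all 14 alternatives. Each of the other 6 called members lost its call under at least 2, and 9 of the 21 uncalled tested members passed under at least 1. Leaving out libraries gave 1023 to 2636 calls over all genes, 1 to 7 members in the dermal direction and 0 to 5 in the inguinal direction, and 1 to 10 and 5 to 10 other pathway genes in these directions. The counts of members higher in inguinal libraries were 0 without dermal replicate 1, without dermal replicate 2 and without inguinal replicate 2 in limma, where 4, 4 and 3 had an unadjusted p below 0.05. Rescaling every library to the same total took out the further factor of the authors, which matched TMM normalization, and moved the median gene by 0.08 on the log2 scale. It also left 0 with limma (4 at an unadjusted p below 0.05). On the recovered reads, without this rescaling, edgeR with its TMM factors called 2 and DESeq2 called 4. Without the intensity trend limma called 2 members in the dermal direction and 1 in the inguinal direction, and 3 other pathway genes in dermal libraries. Without a filter 3 other pathway genes were higher in dermal libraries. A filter at 5 CPM left 1 member higher in inguinal libraries, because Sfrp2, Dkk2 and other low members were no longer tested and gave no value, and quantile normalization gave 8 other pathway genes higher in dermal libraries. For the remaining shifts the cause was not tested.

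With the replicate number as a replicate block, 4726 genes passed, with 11 members higher in dermal libraries, and 18 and 14 other pathway genes in the dermal and inguinal directions. In the dermal direction Wnt5a, Fzd1, Fzd3, Lgr4, Lrp5, Axin2 (adjusted p = 0.000696, limma) and Nkd1 passed there and not in the main fit. So did Fzd6 in the inguinal direction. Of these genes, Fzd3 and Lgr4 alone passed under no alternative without the block. Fzd1 and Fzd6 also passed with DESeq2 on the recovered reads. That fit passed 18.3% and 18.6% of all genes in these directions. Samples of the same number share only a number in the labels, although the difference between replicate 1 and replicate 2 correlated at 0.464 across genes between depots.

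Signs turned under some alternative for uncalled members alone, namely Fzd5, Fzd8, Sfrp1, Sfrp4, Dkk3, Lrp6, Nkd2, Tcf7l1 and Wnt11. Lrp6 reached 0.18 with quantile normalization and 0.0794 with rescaling, and -0.0915 to 0.0843 with libraries left out. Dkk3 ranged from -0.16 to 0.98 and Sfrp4 from -1.17 to 0.33 with libraries left out, and Sfrp4 passed (adjusted p = 0.0344) without inguinal replicate 1. Depth limits the members at few reads, whose ratios carry wide counting intervals.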
